A study of Penicillium oxalicum with 18 samples.

Results

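The strain Refbx23 and the wild type (WT) of the filamentous fungus Penicillium oxalicum were compared on glucose. Refbx23 is the strain in which the deleted F-box gene fbx23 was put back. The comparison took in every gene whose mean transcription level over the 6 libraries of both strains was at least 1 FPKM (fragments mapped to a gene, scaled to its length and to all mapped fragments of the library). This rule kept 7795 of the 9230 genes in the table, and 6 of the 18 libraries of the series entered. The genes just inside the threshold were PDE_09476, PDE_09936 and PDE_06645, with means of 1.00, 1.00 and 1.01 FPKM. Those just outside were PDE_07376, PDE_05521 and PDE_00773, with means of 0.998, 0.993 and 0.992 FPKM.

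The series holds 3 libraries each of the WT, the deletion strain Δfbx23 and Refbx23, in a medium with 2% glucose (VMMG) and in one with cellulose (VMMC), which by the sample labels also held 1% bran. The WT is strain 114-2. Δfbx23 carries the hygromycin resistance gene hph in place of fbx23. Refbx23 was made from Δfbx23 and has the genotype Δfbx23::hph fbx23::ptrA, so it carries hph and the pyrithiamine resistance gene ptrA, which the WT lacks. The marker ptrA is a mutated thiazole synthase gene of Aspergillus oryzae. What the markers, the transformations and the returned gene each contribute to a difference from the WT cannot be told apart in this design. Mycelia were precultured in glucose medium for 24 h at 30 °C and then transferred. The sample labels give 18 h for the second culture and the methods give 24 h. The labels name 3 replicates per group. The study describes those of the WT and Δfbx23 as biological triplicates. For the Refbx23 libraries the sources used here do not say this, so the p-values measure the spread between these libraries, part of which may be technical.

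Fbx23 is an F-box protein with WD repeats. F-box proteins are the exchangeable part of SCF ubiquitin ligases: Skp1 links them to the scaffold Cul1, Rbx1 recruits the ubiquitin-charged enzyme, and the substrate bound by the F-box protein is marked for degradation. P. oxalicum is known for its secreted plant cell wall degrading enzymes, whose genes are repressed on glucose, and its green conidia owe their colour to a polyketide pigment. Fungal genes for one secondary metabolite often lie side by side as a cluster around a backbone gene for a polyketide synthase (PKS), a nonribosomal peptide synthetase (NRPS) or a dimethylallyl tryptophan synthase (DMAT), which attaches a prenyl group.

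Values of a group are given below in the order of replicates 1, 2 and 3, and levels are FPKM. Fold changes are differences of the mean log2(FPKM + 1), Refbx23 minus WT, given ± the moderated standard error (SE) of limma, and they understate the change of genes with low levels. Called genes had to differ by 2-fold or more, with p-values adjusted by Benjamini-Hochberg over all 7795 genes below 0.05. The FPKM of the 6 libraries summed to between 874426 and 954142, and 8463 to 8585 genes were above 0. The table holds no read counts, so the sequencing depth behind the values is unknown. Log2 levels correlated across genes at r = 0.984 to 0.992 among the Refbx23 libraries. In the WT, replicates 1 and 2 correlated at 0.993, while replicate 3 reached 0.970 and 0.980 with them and stood apart. WT replicate 3 was also the WT library nearest to the Refbx23 mean in 913 of the 1429 genes called changed (63.9%).

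The targeted gene can check the label of Δfbx23, but it cannot tell the WT from Refbx23, which both carry it. The level of fbx23 (PDE_08467) was 76.8, 73.01 and 70.1 in the WT and 65.8, 64.4 and 74.9 in Refbx23. It was listed at 0 in all 3 Δfbx23 libraries. The ranges of the WT and Refbx23 overlapped, and the log2 fold change was -0.10 ± 0.10 (n = 3 per group, limma adjusted p = 0.42). The difference was within the spread between libraries.

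The next list holds fbx23, the other SCF subunits and some of the proteins named with the transcription factor Ace1. Of these, 0 of 12 tested genes were called higher and 0 lower, where 11.5% of all tested genes were called higher and 6.8% lower. Their median log2 fold change was 0.22, against 0.01 over all tested genes. At an adjusted p under 0.05 without the fold threshold, 4 of the 12 passed in limma, against 45.2% of all tested genes. At an unadjusted p under 0.05, 5 passed, a level whose share over all genes is not given here. The scaffold gene cul1 (PDE_00128) stood at 65.2, 63.1 and 55.4 in the WT and 91.5, 95.9 and 100.4 in Refbx23. All 3 Refbx23 libraries lay above all WT libraries, with a log2 fold change of 0.64 ± 0.10, adjusted p = 0.0029, which stays below the 2-fold threshold. The RING subunit gene rbx1 (PDE_02289) differed by 0.35 ± 0.11, adjusted p = 0.038, and the adaptor gene skp1 (PDE_02249) by 0.30 ± 0.10, adjusted p = 0.057. The gene of Ace1 (PDE_01988), a zinc finger repressor of cellulase genes, stood at 169.7, 146 and 94.5 in the WT and 90.8, 87.3 and 106 in Refbx23. These ranges overlapped and the test did not call it (-0.49 ± 0.22, adjusted p = 0.12). The gene mub1 (PDE_05666) was below 0.1 FPKM in every library compared and was not tested. The list leaves out PDE_04678, a transcription factor that the study proposes as a very probable further substrate of Fbx23. The gene PDE_04678 was called higher in Refbx23 in VMMG, with a log2 fold change of 1.35. It was picked after its values were seen and is not among the 85 named genes counted below. It is the 1 higher gene of those described as transcription factors and lies in a stretch of 4 higher genes, both counted below.

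Of the 7795 genes, 1429 (18.3%) were called changed in Refbx23 against the WT on glucose, 899 of them higher and 530 lower. Among the higher genes, 547 rose by 2- to 4-fold, 223 by 4- to 8-fold and 129 by at least 8-fold. Among the lower genes, these numbers were 363, 103 and 64. The 3 WT and the 3 Refbx23 libraries did not overlap in 4586 genes (58.8%), with 2403 higher (30.8%) and 2183 lower (28%), and 1422 of the called genes were among them. An exact two-sided permutation test of a single gene cannot go below p = 0.1 with 3 libraries per group, so no single gene can pass 0.05 by that test. Without the fold threshold, 3527 genes (45.2%) had an adjusted p under 0.05, 1877 higher and 1650 lower. The number called was 1598 without WT replicate 3.

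**Figure D1:**
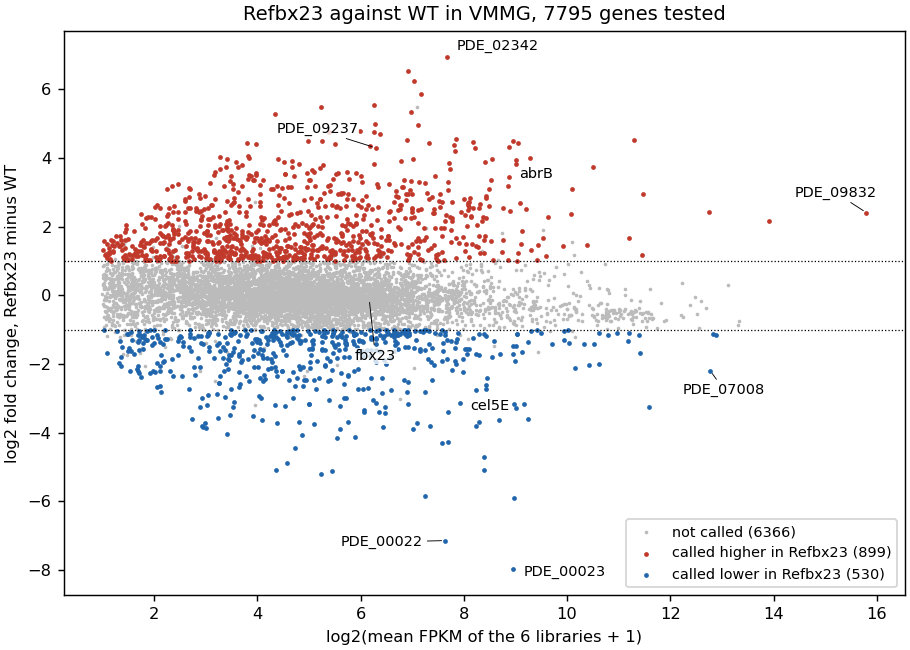
Each point is a gene, placed by its mean level over the 6 libraries in VMMG (log2 of FPKM + 1) and its log2 fold change in Refbx23 against the WT. The dotted lines mark the 2-fold threshold. The 899 genes called higher and the 530 called lower spread over the whole range of levels, and fbx23 lies near 0.

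All 6 genes of the spore pigment pathway named in the study were higher in Refbx23 than in the WT on glucose, by 2.34 to 3.20 on the log2 scale, with a median of 2.58. Here 11.5% of all genes were called higher. The pathway starts with albA (PDE_09491), the polyketide synthase gene. Its level was 13.1, 18.6 and 36.9 in the WT and 148, 219 and 226 in Refbx23, 8.64 times as high on average (3.16 ± 0.37, adjusted p = 0.0011). The gene aygA (PDE_09452), whose A. fumigatus counterpart shortens the polyketide, rose from 65.1, 103 and 147 to 539, 622 and 662 (2.60 ± 0.28, adjusted p = 0.00088). In each of these 2 genes the highest WT library, replicate 3, lay well below the lowest Refbx23 library.

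The genes arpA (PDE_04496) and arpB (PDE_04495) of the pathway, which the study gives as homologs of Arp1 and Arp2 of A. fumigatus, followed the same pattern. The level of arpA was 33.9, 46.1 and 88.6 in the WT and 334, 264 and 349 in Refbx23 (2.57 ± 0.34, adjusted p = 0.0016). That of arpB, the most abundant of the 6, was 251, 328 and 505 in the WT and 1677, 1785 and 1954 in Refbx23 (2.37 ± 0.25, adjusted p = 0.00082). No WT library reached a Refbx23 library in either gene.

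The late genes are abrA (PDE_09453), a brown pigment gene, and abrB (PDE_09492), which encodes a laccase. The level of abrA was 60.1, 74.6 and 130.3 in the WT and 383, 441 and 458 in Refbx23 (2.34 ± 0.28, adjusted p = 0.0011). That of abrB was 54.1, 73.8 and 166 in the WT and 626, 1016 and 832 in Refbx23, the largest change of the 6 (3.20 ± 0.42, adjusted p = 0.0016). WT replicate 3 was the highest WT library in all 6 genes. In Δfbx23 the means were 0.953 for albA, 2.98 for aygA, 1.29 for arpA, 10.1 for arpB, 40.9 for abrA and 1.98 for abrB. Each was lower than the WT mean, so that WT levels lay between those of Δfbx23 and Refbx23. Summed over the 6 genes, the WT libraries held 477 to 1074 FPKM, the Refbx23 libraries 3707 to 4481 and the Δfbx23 libraries 44.7 to 66.0. These genes mark conidiating cells, and in bulk RNA more such cells and more of their RNA per cell cannot be told apart. Their part in the other differences below was not tested.

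**Figure D2:**
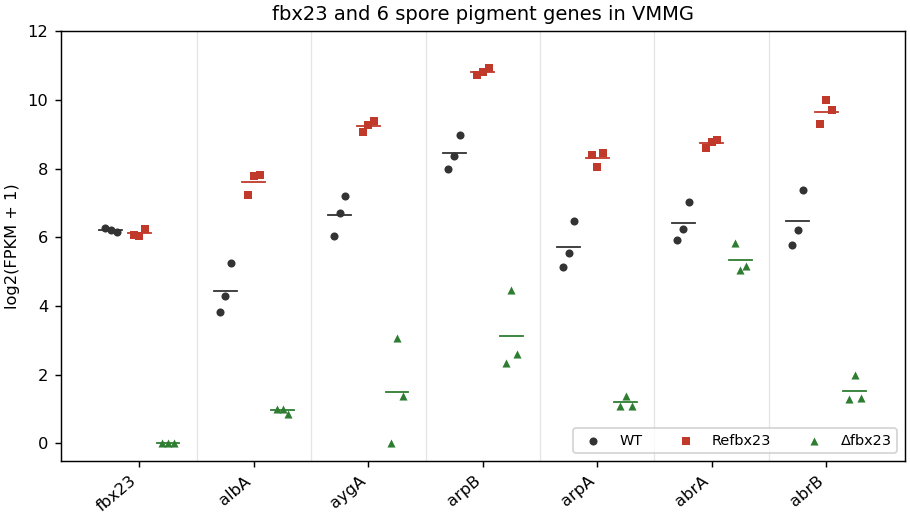
Levels of fbx23 and the 6 spore pigment genes in VMMG, as log2(FPKM + 1) on the vertical axis, with 1 point per library and a line at the mean of 3 libraries. The fbx23 points of the WT and Refbx23 overlap, and fbx23 is at 0 in Δfbx23. For each pigment gene all Refbx23 points lie above all WT points, and all WT points above those of Δfbx23.

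Secondary metabolism genes held the largest blocks of higher genes. The study lists 28 clusters as ranges of loci. The printed ranges of clusters 7, 20 and 28 run backwards or over very many loci, were taken as misprints and were read as PDE_01418 to PDE_01433, PDE_06623 to PDE_06630 and PDE_09999 to PDE_10009. Counts for these 3 clusters depend on that reading. The backbone genes printed for clusters 17, 19 and 22 lie outside their ranges and were left out. Of the other backbone genes, 22 of 32 in the table were tested. Of these, 14 were called higher and 1 lower, against 11.5% and 6.8% of all tested genes. Their median log2 fold change was 2.36, against 0.01 over all tested genes. The higher backbone genes include all tested ones of clusters 1, 2, 26 and 28, described below, and the pigment gene albA. The count thus partly repeats genes given elsewhere here. Without WT replicate 3, 2 backbone genes were called lower. In 4 clusters, those numbered 1, 2, 26 and 28, nearly every tested gene rose.

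Cluster 26 (PDE_09227 to PDE_09243) had the highest median of these 4, 4.01, with 16 of 17 genes called higher, against 11.5% of all tested genes. Its PKS gene PDE_09237 stood at 15.4, 4.73 and 2.73 in the WT and 219, 94.9 and 126 in Refbx23 (4.30 ± 0.58, adjusted p = 0.0018). The gene PDE_09234 rose most in it, from 38.6, 12.2 and 8.6 to 699.9, 323 and 294 (4.57 ± 0.58, adjusted p = 0.0015). All 17 genes were higher without overlap, as were 30.8% of all tested genes. The 1 gene not called, PDE_09228, was at 0.94, 1.59 and 1.4 in the WT and 68.96, 11.1 and 2.98 in Refbx23 (adjusted p = 0.059). In Δfbx23 the mean of the PKS gene was 0.103.

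Cluster 1 (PDE_00787 to PDE_00814) is the longest. Of its 27 tested genes, 24 were called higher and 0 lower, against 11.5% and 6.8% of all tested genes, with a median of 2.33. It holds 3 NRPS and 2 DMAT genes, all called higher. The DMAT gene PDE_00797 rose from 66.1, 75.6 and 105 to 508, 384 and 484 (2.48 ± 0.20, adjusted p = 0.00036). Its most abundant gene was PDE_00806, at 155, 196 and 371 in the WT and 2064, 1682 and 2053 in Refbx23 (3.10 ± 0.32, adjusted p = 0.00072). The 3 tested genes not called were the outermost ones, PDE_00787, PDE_00788 and PDE_00814.

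Cluster 2 (PDE_01064 to PDE_01077) had 10 of 11 tested genes called higher, against 11.5% of all tested genes, with a median of 2.66. Its NRPS gene PDE_01071 was at 1.63, 2.28 and 4.51 in the WT and 37.8, 58.9 and 56.5 in Refbx23 (3.82 ± 0.31, adjusted p = 0.00037). The other NRPS gene of the range, PDE_01077, stayed below 1 FPKM in every library and was not tested. Cluster 28 (PDE_09999 to PDE_10009) had 10 of 11 genes called higher, with a median of 3.04. Its PKS gene PDE_10006 rose from 2.53, 3.5 and 7.68 to 48, 64.4 and 74.5 (3.59 ± 0.35, adjusted p = 0.00061). The exception, PDE_10000, lay between rising neighbours and went the other way, from 3.8, 3.01 and 2.16 in the WT to 0 in all Refbx23 libraries.

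Smaller sets rose elsewhere. All 3 genes of cluster 13 were called higher, among them the PKS gene PDE_03455, which is most similar to a polyketide synthase of Dictyostelium discoideum and stood at 4.04, 5.14 and 8.73 in the WT and 29.1, 37.6 and 42.1 in Refbx23 (2.46 ± 0.27, adjusted p = 0.00085). Cluster 8 had 4 genes called higher and 2 lower of 12, with 1 lower without WT replicate 2 or Refbx23 replicate 2. Its PKS gene PDE_02141, described by its match to the lovastatin nonaketide synthase of A. terreus, rose from 5.41, 7.72 and 15.1 to 52.3, 46.7 and 56.3 (2.45 ± 0.32, adjusted p = 0.0017). The NRPS gene PDE_03304 of cluster 11 had little spread in either strain, at 1.32, 1.69 and 1.59 in the WT and 29.5, 28.03 and 26.3 in Refbx23 (3.52 ± 0.11, adjusted p = 7e-05). In cluster 7, 6 of 14 tested genes were called higher and 1 lower, and in cluster 15, 5 of 11 were called higher and 0 lower. For all these clusters, the shares over all tested genes were 11.5% higher and 6.8% lower.

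Cluster 12 went down. Its 2 genes, PDE_03415 and the NRPS gene PDE_03416, were both called lower, and so were their neighbours PDE_03413, PDE_03414 and PDE_03417, which lie outside the listed range. PDE_03416 stood at 88.8, 81.5 and 18.6 in the WT and 1.98, 3.06 and 4.08 in Refbx23 (-3.74 ± 0.59, adjusted p = 0.0033). PDE_03417 stood at 465, 445 and 220.4 in the WT and 28.7, 29.9 and 41.9 in Refbx23 (-3.40 ± 0.31, adjusted p = 0.00055). In Δfbx23 the means of the 2 genes were 6.55 and 134, below the WT as well. For cluster 5, 3 of 9 genes were called lower, with a median of -2.13, but this number rests on single libraries: 9 were called without WT replicate 3, and 0 without any one of the other 5 libraries. In the remaining clusters the medians lay between -0.77 and 0.88. These medians can hide changes in both directions. In cluster 16, 3 of 10 tested genes were called higher and 2 lower, from -3.90 to 2.52 on the log2 scale. Over all tested genes 11.5% were called higher and 6.8% lower. Cluster 27 includes the pigment genes albA and abrB.

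**Figure D3:**
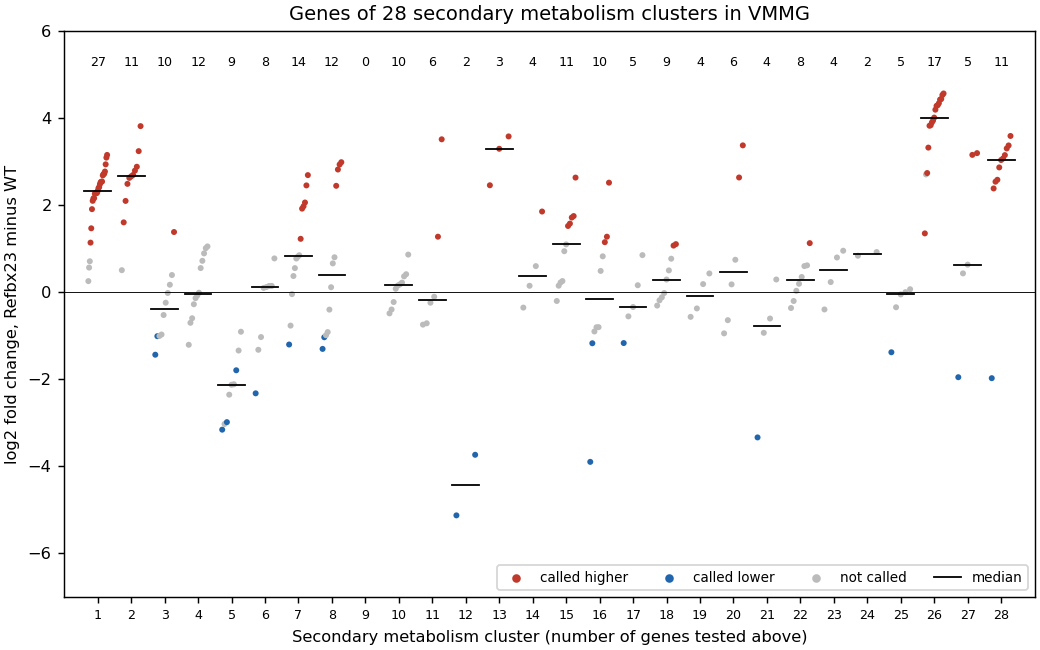
Log2 fold change in Refbx23 against the WT in VMMG of each tested gene (points) in the 28 secondary metabolism clusters, with a line at the median of the cluster and the number of tested genes above. Clusters 1, 2, 13, 26 and 28 have medians of 2.33 or more, and clusters 5 and 12 have medians of -2.13 and -4.43.

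Genes of the same direction also lay next to each other outside the listed clusters. Counting stretches of at least 4 consecutive tested loci called in 1 direction, there were 23, of which 20 were higher and 3 lower, with 150 genes in all. The locus number was used as the order, since positions in the genome were not at hand. The 4 longest stretches held 24, 17, 10 and 9 genes and belong to clusters 1, 26, 28 and 2. The stretch of cluster 26 ran 2 loci past the listed end, to PDE_09245.

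A stretch of 9 higher genes outside the clusters, PDE_02116 to PDE_02126, had a median log2 fold change of 1.64, and its gene PDE_02117 rose from 0.52, 1.05 and 3.13 to 31.8, 10.2 and 26.1 (3.20 ± 0.51, adjusted p = 0.0035). Another, PDE_01350 to PDE_01362, held 8 higher genes with a median of 1.52. At 2 places a stretch of higher genes met one of lower genes. PDE_02461 to PDE_02464 were higher, with a median of 1.87, and PDE_02465 to PDE_02469 lower, with a median of -2.97. At the outer ends PDE_02461 stood at 0.7, 1.16 and 4.04 in the WT and 21.1, 27.1 and 30.4 in Refbx23 (3.35 ± 0.40, adjusted p = 0.0012), and PDE_02469 at 219.7, 171 and 91.1 and 9.61, 8.64 and 10.8 (-3.83 ± 0.31, adjusted p = 0.00038). Where they met, PDE_02464 stood at 0.73, 1.38 and 0.78 in the WT and 3.59, 4.1 and 3.62 in Refbx23 (1.29 ± 0.18, adjusted p = 0.0018), and PDE_02465 at 39.9, 28.7 and 14.6 and 10.9, 8.69 and 10.2 (-1.29 ± 0.34, adjusted p = 0.022). The call of PDE_02465 was lost without WT replicate 1, at -0.99, and without WT replicate 2 or any one Refbx23 library, at adjusted p of 0.051 to 0.073. PDE_06879 to PDE_06882 were higher, with a median of 1.77, and PDE_06884 to PDE_06888 lower, with a median of -2.28. The next locus, PDE_06889, annotated with sodium ion transport, was higher again, at 7.03, 8.85 and 15.7 in the WT and 61.96, 109 and 88.9 in Refbx23 (2.96 ± 0.32, adjusted p = 0.00085).

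The 10 largest rises among called genes without overlap were PDE_02342, PDE_07147, PDE_05065, PDE_09474, PDE_07019, PDE_08250, PDE_03899, PDE_08926, PDE_09628 and PDE_03901. The sources used here describe few of them. PDE_02342 was at 0, 0.65 and 18.1 in the WT and 291, 544 and 373 in Refbx23 (6.95 ± 1.06, adjusted p = 0.0029). PDE_07147 was at 0.02, 0.02 and 9.43 in the WT and 108, 417 and 187 in Refbx23 (6.53 ± 0.99, adjusted p = 0.0028). In both, WT replicates 1 and 2 were near 0 and replicate 3 was above them. PDE_05065 rose from 0.78, 0.91 and 5.54 to 97.4, 456 and 221 (6.26 ± 0.70, adjusted p = 0.00094), and PDE_09474 from 1.49, 1.28 and 15.3 to 159.9, 394 and 289.5 (5.87 ± 0.79, adjusted p = 0.0018). PDE_07019 rose from 0.64, 0.8 and 4.43 to 43.6, 276 and 131 (5.55 ± 0.75, adjusted p = 0.0018). Refbx23 replicate 2 was the highest of its group in these 5 genes, so the size of the rise varied between the Refbx23 libraries as well.

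Another 2 of the 10 were listed at 0 in all WT libraries, and no fold is given for them. PDE_08250, annotated as a hydrolase acting on glycosyl bonds, reached 8.12, 147 and 65.7 in Refbx23. PDE_08926 reached 31.2, 42.6 and 42.4, with little spread. Both were also listed at 0 in Δfbx23, but in VMMC they stood at means of 169.6 and 78.1 in the WT. PDE_09628, annotated with carbohydrate transport, rose from 1.61, 2.6 and 4.78 to 47.8, 264 and 137 (5.0 ± 0.62, adjusted p = 0.0014). PDE_03899 and PDE_03901, which lie 2 loci apart, rose from 1.93, 3.21 and 17.1 to 255, 241 and 233 (5.33 ± 0.64, adjusted p = 0.0012) and from 4.71, 4.52 and 18.3 to 231, 279 and 289.6 (4.98 ± 0.48, adjusted p = 0.00061).

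The 10 largest falls were PDE_00023, PDE_00022, PDE_06674, PDE_03414, PDE_03413, PDE_03415, PDE_04073, PDE_01734, PDE_06868 and PDE_04184. The largest was that of PDE_00023, whose protein is most similar to apoptosis-inducing factor homolog A of D. discoideum. It stood at 1503, 1262 and 196 in the WT and 1.09, 1.6 and 3.29 in Refbx23, 495 times lower on average (-7.98 ± 0.78, adjusted p = 0.00064). Its neighbour PDE_00022 stood at 581, 519.8 and 84.6 in the WT and 1.11, 0.61 and 1.68 in Refbx23 (-7.15 ± 0.73, adjusted p = 0.00071). WT replicate 3 was the lowest WT library in both, yet remained far above every Refbx23 library.

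PDE_06674 fell from 1312, 1228 and 431 to 12.7, 12.3 and 17.02 (-5.90 ± 0.43, adjusted p = 0.0003). PDE_04073, annotated as a monooxygenase, fell from 867, 857 and 227 to 10.3, 14.5 and 23.1 (-5.10 ± 0.57, adjusted p = 0.00091). PDE_04184 fell from 837, 814 and 299 to 18.9, 19.3 and 26.96 (-4.72 ± 0.41, adjusted p = 0.00045). These 3 genes again had their lowest WT value in replicate 3. The neighbours PDE_03413, PDE_03414 and PDE_03415, at and beside cluster 12, fell by 5.21, 5.84 and 5.13 on the log2 scale. PDE_03414 was the most abundant of them, at 456, 371 and 73.8 in the WT and 3.23, 2.12 and 4.17 in Refbx23.

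PDE_01734 and PDE_06868 were listed at 0 in all Refbx23 libraries, and no fold is given. PDE_01734 stood at 18.1, 26.8 and 72.8 in the WT and 39.4, 36.96 and 43.8 in Δfbx23. PDE_06868 stood at 93.8, 36.7 and 6.41 in the WT and 14.5, 33.7 and 18.8 in Δfbx23. Over the 7795 tested genes, 18 with a WT mean of at least 1 FPKM were listed at 0 in every Refbx23 library, and 16 with a Refbx23 mean of at least 1 FPKM were listed at 0 in every WT library. A value listed at 0 does not exclude transcripts below the depth of the library.

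**Figure D4:**
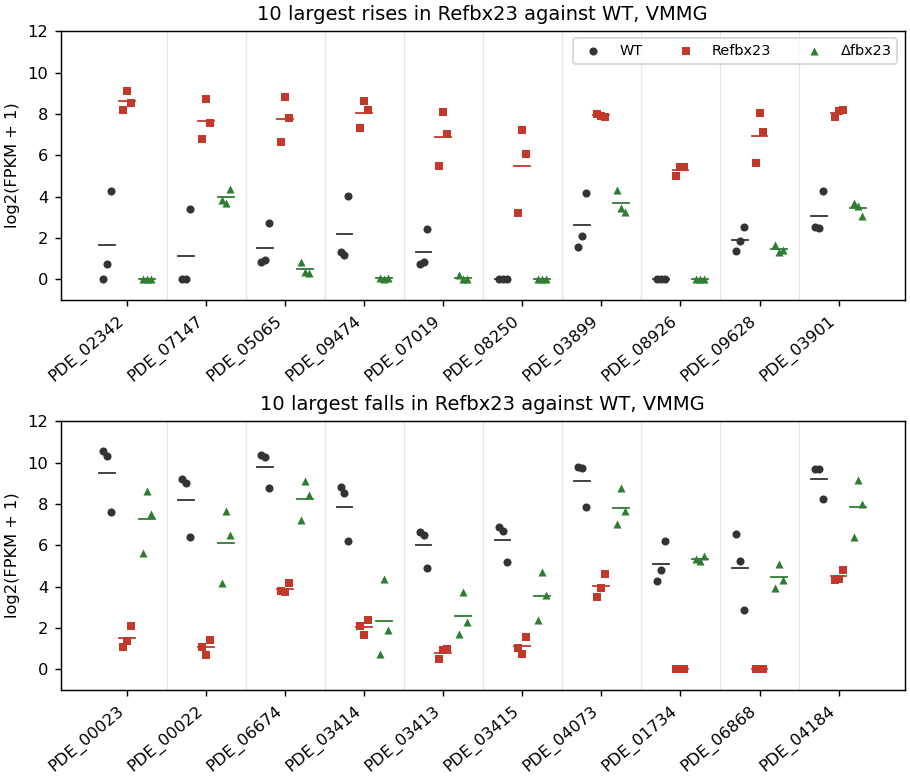
Levels of the 10 genes with the largest rises (upper plot) and the 10 with the largest falls (lower plot) in Refbx23 against the WT in VMMG, as log2(FPKM + 1), with 1 point per library and a line at the mean of 3 libraries. In each gene all Refbx23 points lie on 1 side of all WT points, and Δfbx23 points are shown beside them.

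A few abundant neighbouring genes rose in Refbx23. PDE_09832, annotated with the extracellular region, had the highest mean level of all genes. It stood at 16969.7, 17375 and 19256 in the WT and 90662, 116591 and 80574 in Refbx23, 5.37 times as high on average (2.41 ± 0.24, adjusted p = 0.00064). It made up 9.21% to 12.8% of the summed FPKM of the Refbx23 libraries, against 1.88% to 2.02% in the WT. PDE_09831 rose from 5023, 5841 and 5886 to 24153, 28529 and 22486 (2.16 ± 0.18, adjusted p = 0.0004). Together with PDE_09829 and PDE_09830 they formed a stretch of 4 higher genes. Another extracellular gene among the 10 most abundant, PDE_09715, rose from 1394, 2099 and 3268 to 11086, 12431 and 10949 (2.43 ± 0.31, adjusted p = 0.0014). FPKM are shares of a library, and with median-ratio scaling, which divides each library by its median ratio to the others, 1424 genes were called in place of 1429.

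Among the other abundant genes, PDE_07008 fell most. It encodes a protein most similar to the thiazole biosynthetic enzyme of A. oryzae, which makes the thiazole part of thiamine. It stood at 10309, 12603 and 11496 in the WT and 2802, 2111 and 2622 in Refbx23, 4.57 times lower on average (-2.20 ± 0.17, adjusted p = 0.00035). Its level in Δfbx23, which lacks both fbx23 and ptrA, was 18829.8, 18476 and 16804. In VMMC it stood at means of 584 in the WT and 549 in Refbx23. The cause of its fall in VMMG was not tested. A gene similar to the thiamine regulator thi1 of Schizosaccharomyces pombe, PDE_04046, was at 12.4, 12.6 and 5.91 in the WT and 4.42, 5.55 and 6.82 in Refbx23 and was not called (-0.73 ± 0.30, adjusted p = 0.088). It was picked after its values were seen.

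The transporter gene PDE_07836 fell from 10015, 10436 and 9454 to 4478, 4839 and 4343 (-1.13 ± 0.14, adjusted p = 0.0013), and the membrane protein gene PDE_04682 from 12134, 12716 and 6801 to 4814, 4372 and 4365 (-1.17 ± 0.27, adjusted p = 0.013). The call of PDE_04682 was lost without Refbx23 replicate 3, at an adjusted p of 0.052. PDE_09952 and PDE_02596 lay lower in all Refbx23 libraries, at log2 fold changes of -0.76 and -0.88, within 2-fold. PDE_07106 was not called, and its WT values ran from 1719 in replicate 3 to 16191 in replicate 1. PDE_05327 was at a mean of 7402 ± 231 (SD, n = 3) in the WT and 5763 ± 161 (SD, n = 3) in Refbx23. PDE_01335, a phosphoglycerate mutase gene whose promoter the study uses as constitutive, varied from 1959.7, 881 and 522 in the WT to 753, 349.7 and 397 in Refbx23, with overlapping ranges (adjusted p = 0.15).

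Most cellulase genes were low on glucose in both strains. Of the 13 named in the study, 9 reached a mean of 1 FPKM and were tested, with a median log2 fold change of 0.24. Of these 9, 0 were called higher and 2 lower, against 11.5% and 6.8% of all tested genes. The 2 lower genes were the most abundant ones in the WT. The GH5 gene cel5E (PDE_03711) fell from 587, 527 and 197 to 36.9, 48.7 and 48.4, 9.79 times lower on average (-3.12 ± 0.41, adjusted p = 0.0017). The GH12 gene cel12B (PDE_02886) fell from 122, 99.4 and 48.6 to 17.1, 11.4 and 19.5 (-2.35 ± 0.36, adjusted p = 0.003). In Δfbx23 their means were 191 and 223. WT and Refbx23 did not overlap in either gene.

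The cellobiohydrolase genes, whose products release cellobiose from cellulose chain ends, stayed at low levels. The level of cbh1 (PDE_07945) was 1.43, 3.79 and 1 in the WT and 0.86, 1.88 and 1.43 in Refbx23, and that of cbh2 (PDE_07124) was 0.97, 4.75 and 0.67 and 1.84, 3.03 and 1.82. The ranges overlapped and neither was called (adjusted p = 0.55 and 0.69). The endoglucanase gene eg1 (PDE_07929) differed by -0.23 ± 0.12, adjusted p = 0.18. A beta-glucosidase gene, PDE_02736, most similar to that of A. terreus, rose from 12.3, 15.5 and 22.98 to 57.2, 32.9 and 55.1 (1.47 ± 0.29, adjusted p = 0.0077).

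The xylanase gene xyn11A (PDE_02101) stood at 11.8, 15.2 and 10.1 in the WT and 0, 1.59 and 0 in Refbx23 (-3.27 ± 0.40, adjusted p = 0.0013). The xylosidase gene xyl3A (PDE_00049) rose from 9.33, 8.95 and 11.5 to 21.8, 24.04 and 26.2 (1.2 ± 0.13, adjusted p = 0.00084). The swollenin gene PDE_02102, the neighbour of xyn11A, lay lower in all Refbx23 libraries but within 2-fold (-0.92 ± 0.19, adjusted p = 0.0097). The xylanase gene xyn10A (PDE_08094) and the mannosidase gene man5A (PDE_06023) were at means of 4.19 and 3.61 in the WT and 2.93 and 3.15 in Refbx23 and were not called. Polygalacturonases cleave pectin. Of the 11 tested genes annotated with this activity, 3 were called higher and 0 lower, against 11.5% and 6.8% of all tested genes. Their largest rise was that of PDE_01339, from 0.29, 0.07 and 0.57 to 3.03, 11.3 and 7.91 (2.56 ± 0.42, adjusted p = 0.0037).

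Of the 40 tested genes annotated with carbohydrate transport, 6 were called higher and 5 lower, with a median of 0.18. Over all tested genes 11.5% were called higher and 6.8% lower. At a mean of at least 5 FPKM, 2 were called higher. Without WT replicate 2 the number lower was 3. The largest fall was that of PDE_01388, from 54.4, 66.7 and 100.2 to 11.4, 5.55 and 7.11 (-3.06 ± 0.30, adjusted p = 0.00067). The most abundant lower one, PDE_03140, fell from 636, 611 and 513 to 108, 103 and 113 (-2.42 ± 0.11, adjusted p = 0.00011), and in VMMC it was at 4.62 in the WT. The largest rise was that of PDE_09628 above.

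Of the 27 tested genes annotated with amino acid transport, 6 were called higher and 6 lower, against 11.5% and 6.8% of all tested genes. Their median was -0.03. PDE_04989 rose from 2.25, 3.36 and 8.83 to 79.9, 64.2 and 68.3 (3.79 ± 0.39, adjusted p = 0.00074), and PDE_09673 fell from 49.4, 51.4 and 79.5 to 9.81, 6.17 and 8.14 (-2.74 ± 0.23, adjusted p = 0.00042). The siderophore iron transporter gene PDE_00592, similar to mirB of Emericella nidulans, fell from 119, 104 and 76.9 to 6.03, 5.75 and 8.5 (-3.70 ± 0.20, adjusted p = 0.00014).

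Of the genes with a protein description, 449 were tested and 62 called (13.8%), 39 higher and 23 lower, against 18.3% called over all tested genes. Those described next were chosen with their values known. PDE_06171, similar to the NAD-specific glutamate dehydrogenase of Neurospora crassa, which breaks glutamate down, rose from 21.7, 22.4 and 26.1 to 149, 172 and 223 (2.88 ± 0.16, adjusted p = 0.00015). PDE_02386, similar to the glutamate synthase of S. pombe, rose from 7.57, 9.56 and 41.8 to 138, 129 and 155 (3.17 ± 0.58, adjusted p = 0.0059). PDE_06347, similar to a uracil catabolism protein of Saccharomyces kluyveri, rose from 20.3, 21.1 and 24.8 to 84.4, 124 and 114 (2.22 ± 0.17, adjusted p = 0.00031). For these 3 genes no WT library reached the lowest Refbx23 library.

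The largest rise with a description was that of PDE_04438, similar to a gramicidin synthase subunit of Brevibacillus parabrevis, a peptide synthetase, from 0.15, 0.19 and 0.9 to 31.9, 33.8 and 20.9 (4.41 ± 0.27, adjusted p = 0.00017). It lies in none of the 28 clusters. PDE_06628 of cluster 20, similar to the 3-dehydroshikimate dehydratase of N. crassa, rose from 1.01, 1.23 and 2.2 to 21.6, 31.04 and 21.2 (3.38 ± 0.23, adjusted p = 0.00025). PDE_04936, similar to the psi-producing oxygenase C of A. fumigatus, an enzyme that makes oxylipins, rose from 32.03, 39.2 and 60.4 to 207, 195 and 220.4 (2.26 ± 0.22, adjusted p = 0.00067). PDE_05708, similar to catalase A of A. fumigatus, which breaks down hydrogen peroxide, rose from 1.53, 1.55 and 2.87 to 10.4, 10.6 and 11.5 (2.02 ± 0.19, adjusted p = 0.00059). PDE_05986, similar to opsin-1 of N. crassa, a light-sensitive membrane protein, rose from 326, 319.9 and 301 to 711, 763 and 737 (1.22 ± 0.09, adjusted p = 0.00031).

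PDE_03490, similar to the biotin synthase of Saccharomyces cerevisiae, rose from 8.55, 11.9 and 49.4 to 150.4, 87.6 and 109.8 (2.63 ± 0.61, adjusted p = 0.014). Its call was lost without WT replicate 2, with an adjusted p of 0.052. PDE_09461, similar to GTP cyclohydrolase 1 of N. crassa, the first enzyme towards folate, fell from 98.01, 113 and 161 to 25.3, 31.5 and 37.2 (-1.94 ± 0.22, adjusted p = 0.00097). PDE_03745, similar to the folic acid synthesis protein fol1 of Pneumocystis carinii, fell from 24.4, 24.1 and 31.9 to 14.3, 9.74 and 12.8 (-1.07 ± 0.18, adjusted p = 0.0038), and its fold fell below 2 without WT replicate 3, at -0.94, and without Refbx23 replicate 2, at -0.93.

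PDE_02145, similar to the serine/threonine-rich protein adg2 of S. pombe, fell from 1175, 1217 and 945 to 69.3, 111 and 97.05 (-3.59 ± 0.20, adjusted p = 0.00014). PDE_00638, similar to a phosphoketolase of Nostoc, which splits sugar phosphates, fell from 2601, 2762 and 2161 to 527, 559 and 841 (-1.99 ± 0.21, adjusted p = 0.00079). PDE_01852, similar to the aspartic endopeptidase OPSB of Arthroderma benhamiae, fell from 368, 359 and 344 to 101, 62.8 and 77.1 (-2.16 ± 0.17, adjusted p = 0.00038). In each of the 3 genes the lowest WT library was above the highest Refbx23 library.

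Of 14 genes described as cytosolic ribosomal proteins, 1 was called lower and 0 higher, with a median of -0.67, and the groups did not overlap in 13 of them, all lower, where 28% of all tested genes were lower without overlap. Without the fold threshold 8 of them had an adjusted p under 0.05, all lower, where 21.2% of all tested genes did. The 1 called, PDE_05635 for L38, went from 548, 614 and 998 to 344, 309 and 301 (-1.13 ± 0.23, adjusted p = 0.0086) and lost its call without WT replicate 3, at -0.87. Summed over the 14 genes, the WT libraries held 29538 to 50077 FPKM and the Refbx23 libraries 22392 to 24463. Of 5 mitochondrial ribosomal protein genes and 13 proteasome or ubiquitin genes, 0 were called in either direction, with medians of -0.31 and 0.04. At an adjusted p under 0.05 without the fold threshold, 3 and 4 of these passed in limma, against 45.2% of all tested genes. At an unadjusted p under 0.05, 3 and 7 passed, a level whose share over all genes is not given here. Of 15 genes described as transcription factors, 1 was called higher and 3 lower, against 11.5% and 6.8% of all tested genes. Their median was -0.35. Only 1 was lower without WT replicate 1 or 2 or Refbx23 replicate 2.

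The same comparison in VMMC uses other libraries of both strains. There 1019 of 8012 tested genes (12.7%) were called changed, 451 higher (5.63%) and 568 lower (7.09%). Higher in both media were 122 genes and lower in both 49. These make up 11.97% of the calls in VMMG and 16.8% of those in VMMC. A further 90 genes were higher in VMMG and lower in VMMC, and 66 were lower in VMMG and higher in VMMC. An interaction term fitted to the 12 libraries tested whether the strain effect differed between media, and 2335 of 8072 genes (28.9%) were called, 1353 with the effect in VMMG above that in VMMC and 982 below.

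All 6 pigment genes were among them. In VMMC albA stood at means of 78.2 in the WT and 91.5 in Refbx23, and abrB at 371 and 307. The interaction was 2.93 for albA and 3.46 for abrB on the log2 scale (adjusted p = 0.00014 and 9.3e-05). In VMMC, 0 of 6 were called higher and 0 lower, against 5.63% and 7.09% of all tested genes.

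Cluster 26 rose in both media, with 16 of 17 genes called higher in VMMC at a median of 3.18, and the interaction was called in 3 of 17. Cluster 1 likewise had 24 of 27 genes called higher in VMMC at a median of 1.81, and the interaction was called in 10. Over all tested genes, 5.63% were called higher in VMMC, and the interaction was called in 28.9%. Clusters 2 and 28 rose in VMMG while their medians in VMMC were 0.16 and 0.36, and the interaction was called in 11 of 12 and 11 of 11 genes. Those of cluster 28 include PDE_10000, which was lower in both media, by -1.98 in VMMG and -5.42 in VMMC. The PKS gene of cluster 26, PDE_09237, stood at 39.5 in the WT and 368 in Refbx23 in VMMC. That of cluster 28, PDE_10006, stood at 17.7 and 29.9. The 14 cytosolic ribosomal protein genes, at -0.67 in VMMG, had a median of 0.64 in VMMC, and the interaction was called in 13 of 14.

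Of the 10 largest rises in VMMG, 6 were called lower in Refbx23 in VMMC and 0 higher, where 7.09% of all tested genes were called lower and 5.63% higher there. These 10 were picked by their VMMG values. PDE_02342 stood at means of 279 in the WT and 138 in Refbx23 in VMMC, and PDE_09628 at 23.8 and 7.35. The glutamate dehydrogenase gene PDE_06171 went from 501 to 111 in VMMC (log2 fold change -2.16, adjusted p = 5.2e-07), opposite to its rise in VMMG. The xylanase gene xyn11A (PDE_02101) was the reverse case, at 3.2 and 56.7 in VMMC (4.26, adjusted p = 0.00068).

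**Figure D5:**
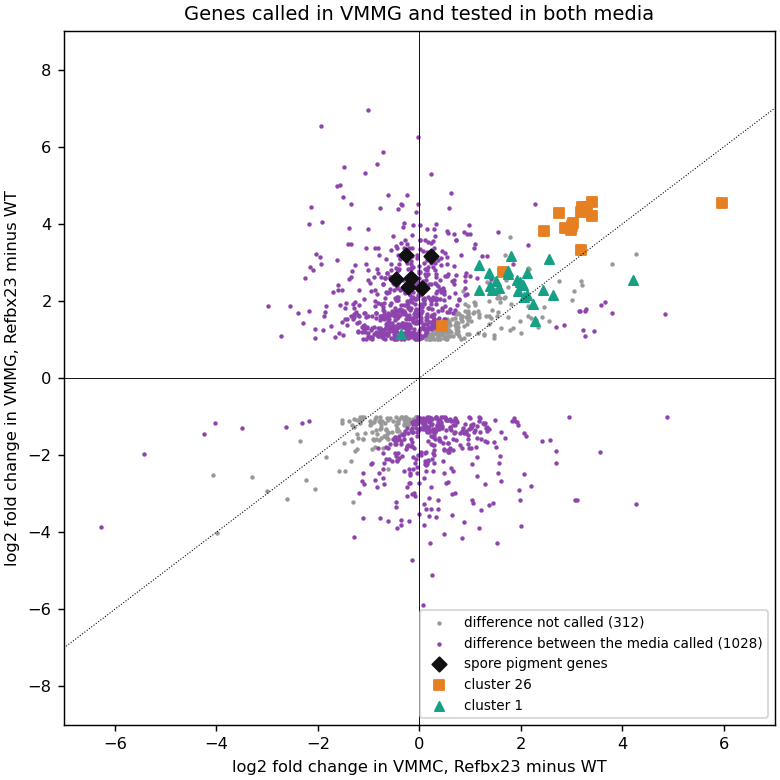
Log2 fold change of Refbx23 against the WT in VMMC (horizontal) and in VMMG (vertical) for the 1340 genes called in VMMG and tested in both media, with the genes whose difference between the media was called in purple and a dotted line where both are equal. The genes were picked by their VMMG values, so the 1028 called differences are a description. Cluster 26 and most of cluster 1 lie to the right of 0, and the 6 pigment genes lie near 0 on the horizontal axis.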

How the data were processed

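The RNA of 18 libraries was measured, 3 for each of 3 strains in VMMG and VMMC, and the 6 libraries of WT and Refbx23 in VMMG were compared here, together with the 6 of the same strains in VMMC. The authors deposited FPKM per gene (fragments scaled to gene length and to all mapped fragments) with 2 decimals. FPKM hold neither read counts nor depth, so no count model, interval or floor was used. The methods of the study describe RNA-Seq on the BGISEQ-500 platform and 24 h of culture in media with 2% glucose or 2% cellulose, while the sample labels describe a tag-based protocol, 18 h of culture and, for the inducing medium, 1% bran with 1% microcrystalline cellulose. The steps from reads to FPKM (aligner, genome version) were not given in the sources used here. Columns of the authors' own comparisons were not used, and 0 columns of values were left without a sample.

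Genes whose mean over the 6 libraries reached 1 FPKM entered the fit of log2(FPKM + 1) in limma 3.58.1 under R 4.3.3, with empirical Bayes and a trend of variance on intensity. Called genes had to differ by 2-fold or more, with an adjusted p under 0.05 (Benjamini-Hochberg over all tested genes). Fold changes are on the log2(FPKM + 1) scale, which understates the change of low genes. The 2-group exact permutation test cannot go below p = 0.1 with 3 libraries per group. The difference between media was an interaction in 1 limma fit of 12 libraries. On simulated data for the 7795 tested genes of Refbx23 against WT, 193 of 200 changed genes were found, with 10 false calls. All planted changes were of 2 on the log2 scale, in genes at about 5 FPKM or more in the WT, with independent noise. So the simulation cannot speak for smaller changes, lower genes or shifts shared by many genes of 1 library. Tables were computed in pandas 2.3.3 with numpy 2.4.6 under Python 3.11.15, and matplotlib 3.10.9 drew the plots.

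Named genes were those with a locus and a role in the study's text, the 10 largest rises and falls among called genes without overlap, the 10 most abundant genes, called genes with a protein description or GO term, and the longest stretches of neighbouring loci. Lists came from the study's text and supplementary annotation. Of the keyword lists, that for heat shock proteins and chaperones had 6 tested genes (0 higher, 1 lower). That for transporters had 17 (3 and 1) and that for oxygenases 1 (1 and 0). Over all tested genes 11.5% were called higher and 6.8% lower. The members and lists were chosen with earlier results of these data known. Pseudocount, filter, scaling, libraries in the fit, replicate block, trend, library weights and fold threshold were varied, and each library was left out in turn.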

Additional observations from a re-analysis of the deposited data

Results flagged for a closer look

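For 85 of the 111 named genes tested for it, the difference between Refbx23 and the WT differed between VMMG and VMMC by the limma interaction. This took at least 1 on the log2 scale, and the adjusted p from these fits was at most 0.03. The values below are the log2 fold change in VMMG minus that in VMMC. In 51 genes it was positive and in 34 negative. Over all 8072 genes tested for the difference, 28.9% were called, 16.8% positive and 12.2% negative. Of the 85, 7 were called higher in VMMG and lower in VMMC, 3 lower in VMMG and higher in VMMC, and 4 in the same direction in both. The named genes were chosen mostly by their change in VMMG, so the number of them is a description.

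For the pigment genes it was 3.46 for abrB, 2.29 for abrA, 2.76 for aygA, 3.04 for arpA, 2.60 for arpB and 2.93 for albA, and for the SCF subunit gene 1.04 for skp1. Among genes for cellulases and other plant cell wall enzymes it was 4.45 for PDE_05445, 3.08 for PDE_01339, 1.71 for xyn10A, 1.67 for cbh1, 1.56 for cbh2, 1.40 for xyl3A, 1.22 for PDE_05633, 1.21 for eg2, 1.20 for cel5C and 1.09 for PDE_02736, and on the other side -7.53 for xyn11A, -3.32 for cel5E, -2.14 for cel12B and -1.33 for PDE_02102. The cellobiohydrolase genes cbh1 (PDE_07945) and cbh2 (PDE_07124), not called in VMMG, were called lower in VMMC, with WT means of 2471 and 2879.5 and Refbx23 means of 642 and 1161. Of the cellulase genes, 0 of 9 tested were called higher in VMMG. In VMMC, 0 of 12 were called higher and 3 lower, with a median of -0.74, against 5.63% and 7.09% of all tested genes. So a positive value here need not be a rise in VMMG. The interaction was -3.97 for PDE_01335, the phosphoglycerate mutase gene, which was not called in VMMG.

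For the largest rises it was 7.96 for PDE_02342, 8.47 for PDE_07147, 6.29 for PDE_05065, 6.58 for PDE_09474, 6.38 for PDE_07019, 6.97 for PDE_08250, 6.40 for PDE_03899, 5.07 for PDE_08926, 6.57 for PDE_09628 and 6.61 for PDE_03901. For the largest falls it was -7.71 for PDE_00023, -6.83 for PDE_00022, -5.97 for PDE_06674, -5.66 for PDE_03414, -5.21 for PDE_03413, -5.19 for PDE_03415, -5.35 for PDE_04073, -4.97 for PDE_01734, -4.90 for PDE_06868 and -4.58 for PDE_04184. Several of the latter were near 0 in VMMC in both strains: PDE_00023 had means of 0.783 in the WT and 0.337 in Refbx23. For the most abundant genes and their neighbours it was 2.49 for PDE_09832, 2.34 for PDE_09831, 3.01 for PDE_09830, 2.74 for PDE_09829 and 1.75 for PDE_09715, against -2.11 for PDE_07008, -1.55 for PDE_07836, -1.56 for PDE_04682, -1.33 for PDE_09952 and -1.32 for PDE_02596.

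In the secondary metabolism clusters and the stretches of neighbouring loci it was 3.27 for PDE_01071, 2.86 for PDE_10006, 3.45 for PDE_10000, 3.31 for PDE_03304, 2.22 for PDE_02141, 2.16 for PDE_03455, 2.31 for PDE_06628, 3.33 for PDE_02461, 1.85 for PDE_02464 and 1.11 for PDE_06889, against -3.64 for PDE_09228, -3.61 for PDE_03416, -3.62 for PDE_03417, -1.14 for PDE_02465 and -5.83 for PDE_02469. Within cluster 26, PDE_09228, not called in VMMG, rose in VMMC from a WT mean of 16.3 to 1400.5. For PDE_10000 of cluster 28 the WT mean in VMMC was 43.3, and all Refbx23 libraries there were listed at 0 as well.

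For the remaining genes that rose in VMMG it was 5.05 for PDE_06171, 3.83 for PDE_04438, 2.90 for PDE_04989, 2.82 for PDE_06347, 2.51 for PDE_03490, 1.91 for PDE_04936, 1.84 for PDE_02386, 1.81 for PDE_05986 and 1.54 for PDE_05708. For the remaining genes that fell it was -4.03 for PDE_09673, -3.83 for PDE_00592, -3.77 for PDE_02145, -2.98 for PDE_01388, -2.32 for PDE_01852, -2.27 for PDE_00638, -2.19 for PDE_09461, -2.11 for PDE_03140 and -1.75 for PDE_05635. The cause of these differences was not tested.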

How the results depend on the processing

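With no fold threshold 3527 genes were called, 1877 higher and 1650 lower, and the other alternatives gave 1212 to 1642. Leaving out 1 library gave 1289 to 1598 calls in VMMG, 808 to 959 higher and 445 to 639 lower. The higher share of calls was 60.01% to 65.95%, against 62.9%. Deviations of WT and Refbx23 libraries of the same number correlated at 0.16, -0.09 and 0.05 over genes, and those of other numbers at -0.16 to 0.13. So few libraries cannot show whether the replicate numbers pair the samples. With a replicate block 1445 genes were called. Leaving out 1 library kept 6 pigment genes higher, 2 cellulase genes lower, and 24, 10 and 10 genes of clusters 1, 2 and 28 higher, 1 gene of cluster 28 lower, and 15 to 17 of cluster 26 higher. For backbone genes it gave 14 to 15 higher and 1 to 2 lower, for carbohydrate transport 5 to 6 and 3 to 5, for amino acid transport 4 to 7 and 5 to 7, and 18 to 25 stretches of neighbouring loci. Without the fold threshold there were 77 stretches, 15 higher and 8 lower carbohydrate transport genes and 11 lower amino acid transport genes. At a mean of at least 5 FPKM, 2 carbohydrate transport genes were higher and 0 genes of cluster 28 lower. Lower backbone genes were 2 with all 18 libraries in 1 fit or with library weights. These weights did not reach their tolerance and ran from 0.165 to 14.4. The difference of the Refbx23 effect between VMMG and VMMC was called in 2335 genes, in 2470 with a pseudocount of 0.1, and in 2236 to 2399 without 1 library, an alternative chosen after seeing the data. No direction reversed. Of 1593 values of 107 single genes, 12 no longer passed the call (in PDE_02465, PDE_03490, PDE_03745, PDE_04682 and PDE_05635) and 12 newly passed it. The cause was not tested where a call changed. With 3 libraries per group p-values measure the spread between these libraries only, and depth is unknown.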

Other observations

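Some genes were listed at 0 in every library of 1 group and not in another. PDE_00836 stood at 11.9, 9.97 and 20.6 FPKM in the WT in VMMG and was listed at 0 in all Refbx23 and all Δfbx23 libraries of that medium. PDE_01778 stood at 15.7, 14.1 and 9.8 in the WT and 17.8, 18.5 and 18.9 in Δfbx23, and was listed at 0 in the 3 Refbx23 libraries. PDE_02851 showed the same order, with 13.4, 10.2 and 10.1 in the WT and 7.73, 9.54 and 10.6 in Δfbx23 against 0 in Refbx23. In the other direction, PDE_03138 was listed at 0 in all WT and Δfbx23 libraries and at 7.05, 6.89 and 8.71 in Refbx23, and PDE_02932 likewise, with 6.92, 43.7 and 27.2 in Refbx23. These genes were picked after their values were seen.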
